A study of Mus musculus with 19 samples.

Results

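The 9 genes described here encode cytosolic Hsp90 and the co-chaperones that work with it: Hsp90ab1, Hsp90aa1, Stip1, Cdc37, Ahsa1, Ptges3, Fkbp4, Ppid and Chordc1. They were named by symbol with earlier results of these same data in view, namely that chaperone genes were lower after amphetamine. Their amphetamine values are therefore a description that supports nothing further. Where the number of members passing a test is given for amphetamine, it stands beside the share of all genes that did, and nothing is read from it. The 9 were found among 49592 genes in the count files, and all 9 were among the 21513 genes with enough counts to be tested.

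The data are RNA-seq of the striatum from 19 males, 4 months old, each a separate animal in the labels. Every mouse was a D2RCre_floxCas9-EGFP animal, in which Cre made under the dopamine D2 receptor gene switches on Cas9 and EGFP. Viral delivery was aimed at the medial prefrontal cortex (mPFC). Knockout mice (PFC_D2R-KO) received AAV5 D2R-sgRNA there, and control mice received AAV5 syn-mCherry. Whether guide RNAs also reached cells outside the mPFC was not tested. Saline injections ran for 5 days, each followed by 30 min of locomotor recording, and the last injection, on day 9, was amphetamine (3 mg/kg, ip) or saline. Animals were killed 90 min after amphetamine, and no separate time is stated for saline. Of the control mice, 5 had saline and 5 amphetamine last. Of the knockout mice, 5 had saline and 4 amphetamine last.

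Hsp90 is an abundant ATP-driven chaperone that finishes the folding of kinases, steroid receptors and other signalling proteins after they leave Hsp70. It works as a dimer that closes and opens around its client, and co-chaperones bind it in turn to load clients, speed or slow the ATPase, and hold the closed state. Several of these genes are classical targets of heat shock factor 1, and in neurons the system also takes part in receptor trafficking and protein quality control.

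Library totals ran from 57003408 to 85536346 counts, and the lowest count of any member in any library was 3100, for Chordc1. Levels are given as CPM, each count divided by its library total and scaled by the TMM method. Of 14 markers of striatal projection neurons, all 14 reached 1 CPM in every group, with summed levels from 2149 to 7285 CPM. Striatal Drd2 does not check the knockout, which was aimed at the mPFC. After saline it averaged 125 ± 31.9 CPM (SD, n = 5) in control and 105 ± 19.1 (n = 5) in knockout mice. After amphetamine it averaged 173 ± 25.6 CPM (n = 5) in control and 85.4 ± 40.0 (n = 4) in knockout mice, groups that did not overlap. Amphetamine knockout mice 2 and 3, saline knockout mouse 3, saline control mouse 5 and amphetamine control mouse 3 had been picked as standing apart, and medians are given below also without these 5. In bulk tissue, fewer cells of a type and less RNA per cell cannot be told apart.

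Levels between genes were compared per length, from the authors' deposited FPKM. Over 19 mice the mean was 529 FPKM for Hsp90ab1, 343 for Hsp90aa1, 92.5 for Stip1, 65.6 for Ptges3, 50.5 for Fkbp4, 45.6 for Ahsa1, 18.9 for Ppid, 15.4 for Chordc1 and 14.5 for Cdc37. Hsp90ab1 lay at the 99.9th percentile of the listed genes and Cdc37 at the 79.7th. The Hsp90 pair and Stip1 held their places in saline control mice, where Stip1 ran from 83.2 to 117 FPKM and Ptges3 from 61.3 to 66.5. Lower in the order some neighbours overlapped in these mice, though Ahsa1 and Ppid did not. Fkbp4 (41.3 to 64.0 FPKM) overlapped both Ptges3 and Ahsa1 (41.3 to 51.6), and Chordc1 (7.67 to 17.7) overlapped both Ppid (15.4 at its lowest) and Cdc37 (13.3 to 15.4).

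Since several of these genes are known heat shock factor targets, the promoter stretches with heat shock units are shown before the values. The RefSeq table of GRCm38.p6 promoters, 250 bases before to 50 after each start, held windows for 6 of the 9, namely Stip1, Ahsa1, Cdc37, Fkbp4, Ptges3 and Chordc1. Hsp90aa1, Hsp90ab1 and Ppid were not matched. Heat shock units were searched as GAA and TTC alternating with 2 bases between (GAANNTTC or TTCNNGAA for a pair), which covers both strands, and the units are in capitals:
Chordc1, chr9:18292260-18292288, plus strand: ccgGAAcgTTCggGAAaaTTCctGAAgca
Chordc1, chr9:18292289-18292316, plus strand: gtaccggcggcTTCcgGAAgctagctgc
Fkbp4, chr6:128438789-128438818, minus strand: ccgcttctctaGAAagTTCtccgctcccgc
Cdc37, chr9:21150086-21150115, minus strand: tcggcgggaacTTCcaGAAggcctcaccac

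The first Chordc1 stretch holds 5 alternating units, from base -4 to base 19 of the window's start site. Of 32851 windows of the same length, 1 (0.00304%) held 5 or more units, and it is this Chordc1 window. That minimum was picked after this run was seen. At least 2 units stood in 15.1% of all windows and in 3 of the 6 members' windows, and at least 3 units in 0.603% of all windows. The windows of Stip1, Ahsa1 and Ptges3 held no such pair. CCAAT boxes, searched as CCAAT and ATTGG, stood in 37.4% of all windows and in 3 of the 6, with 4 of them in the Stip1 window. These matches are letters in a window, no binding was measured, and their part in the member levels was not tested.

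The 2 Hsp90 genes come first. Hsp90ab1 (ENSMUSG00000023944.15, GRCm39 chromosome 17, 45878701 to 45884197) encodes the constitutive form. It stood at 1393, 1335, 1418, 1408 and 1343 CPM in saline control mice, and at 1373, 1318, 1237, 1326 and 1238 after amphetamine. In knockout mice it stood at 1416, 1385, 1453, 1474 and 1387 after saline, and at 1196, 1179, 1253 and 1196 after amphetamine. The control groups overlapped, while all 4 amphetamine knockout mice lay below all 5 saline knockout mice. The log2 fold change (amphetamine over saline) was -0.09 ± 0.06 (SE) in control and -0.24 ± 0.06 in knockout mice.

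Hsp90aa1 (ENSMUSG00000021270.14, chromosome 12, 110657039 to 110669162) encodes the stress-inducible form. Its levels were 1123, 1159, 1070, 1262 and 1125 CPM in saline control mice, and 1137, 1076, 1122, 1033 and 1016 after amphetamine. For knockout mice they were 1483, 1166, 1187, 1283 and 1161 CPM after saline, and 1002, 923, 1096 and 948 after amphetamine. Saline knockout mouse 1, at 1483 CPM, was the highest of all 19, and the knockout groups did not overlap. Its log2 fold change was -0.09 ± 0.08 in control and -0.34 ± 0.08 in knockout mice. The ratio of Hsp90aa1 to Hsp90ab1, per length, averaged 0.640, 0.638, 0.678 and 0.631 in the 4 groups in the order above, with a highest value of 0.804 in saline knockout mouse 1.

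Stip1 and Cdc37 load clients. Stip1 (ENSMUSG00000024966.10, chromosome 19, 6998070 to 7017335) encodes HOP, which bridges Hsp70 and Hsp90. It stood at 197, 193, 208, 247 and 175 CPM in saline control mice, and at 176, 179, 167, 186 and 162 in amphetamine control mice. It stood at 248, 220, 219, 240 and 214 in saline knockout mice, and at 172, 170, 169 and 164 in amphetamine knockout mice. The amphetamine knockout mice were close together and lay below every saline mouse of both genotypes, while the control groups overlapped. The log2 fold change was -0.23 ± 0.08 in control and -0.43 ± 0.08 in knockout mice.

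Cdc37 (ENSMUSG00000019471.11, chromosome 9, 21044518 to 21061278) encodes the adaptor that brings kinases to Hsp90. Its levels were 112, 113, 112, 120 and 104 CPM in saline control mice, and 119, 113, 113, 112 and 102 after amphetamine. Knockout mice had 108, 114, 150, 121 and 121 CPM after saline, and 103, 104, 114 and 110 after amphetamine. Both pairs of groups overlapped, and saline knockout mouse 3 stood apart at 150 CPM. Amphetamine went with a log2 fold change of -0.01 ± 0.08 in control and -0.19 ± 0.08 in knockout mice.

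Ahsa1 and Ptges3 act on the ATPase cycle. Ahsa1 (ENSMUSG00000021037.8, chromosome 12, 87313253 to 87320753) encodes AHA1, which stimulates the ATPase. It stood at 104, 104, 103, 116 and 92.8 CPM in saline control mice, and at 94.5, 96.7, 96.7, 95.2 and 91.8 in amphetamine control mice. It stood at 124, 113, 128, 122 and 109 CPM in saline knockout mice, and at 90.5, 86.8, 96.7 and 89.9 in amphetamine knockout mice. The lowest saline control mouse lay within the amphetamine range, and the knockout groups did not overlap. On the log2 scale the difference was -0.13 ± 0.06 in control and -0.39 ± 0.07 in knockout mice.

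Ptges3 (ENSMUSG00000071072.13, chromosome 10, 127894823 to 127913141) encodes p23, which holds Hsp90 closed on its client. Its levels were 123, 127, 123, 133 and 128 CPM in saline control mice, and 136, 124, 121, 124 and 120 after amphetamine. Knockout mice had 143, 141, 178, 139 and 130 CPM after saline, and 123, 128, 132 and 122 after amphetamine. Saline knockout mouse 3 was highest, as for Cdc37, and both pairs of groups overlapped. The difference on the log2 scale was -0.02 ± 0.07 in control and -0.21 ± 0.08 in knockout mice.

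Fkbp4 and Ppid encode immunophilins that ride with Hsp90 on steroid receptors. Fkbp4 (ENSMUSG00000030357.11, chromosome 6, 128407066 to 128415640), which encodes FKBP52, stood at 140, 136, 148, 171 and 110 CPM in saline control mice, and at 136, 125, 115, 127 and 108 after amphetamine. In knockout mice it stood at 142, 152, 178, 160 and 153 CPM after saline, and at 116, 122, 116 and 116 after amphetamine. The knockout groups did not overlap, and the control groups did. Its log2 fold change was -0.21 ± 0.09 in control and -0.42 ± 0.10 in knockout mice.

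Ppid (ENSMUSG00000027804.14, chromosome 3, 79498672 to 79510957), which encodes cyclophilin 40, stood at 73.2, 72.4, 75.6, 73.2 and 58.2 CPM in saline control mice, and at 79.8, 71.3, 66.7, 65.0 and 65.3 after amphetamine. Knockout mice had 81.8, 74.7, 93.8, 77.7 and 75.5 CPM after saline, and 66.9, 57.8, 68.9 and 62.4 after amphetamine. The control groups overlapped, with saline mouse 5 the lowest of them, and the knockout groups did not overlap. The log2 fold change was -0.02 ± 0.08 in control and -0.33 ± 0.09 in knockout mice.

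Chordc1 (ENSMUSG00000001774.9, chromosome 9, 18203421 to 18228738) encodes CHP1, also called morgana, a CHORD-domain protein that binds Hsp90. It stood at 102, 98.2, 95.3, 92.7 and 44.3 CPM in saline control mice, and at 97.5, 95.4, 85.4, 83.0 and 79.4 after amphetamine. In knockout mice it stood at 133, 101, 95.6, 94.1 and 94.6 CPM after saline, and at 80.2, 61.1, 82.5 and 79.7 after amphetamine. Of the 9 it varied most, with a highest to lowest ratio of 3.00, against 1.25 for Hsp90ab1. Its fitted log2 difference was 0.03 ± 0.17 in control and -0.45 ± 0.18 in knockout mice, and without saline control mouse 5 the control value was -0.14.

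**Figure D1:**
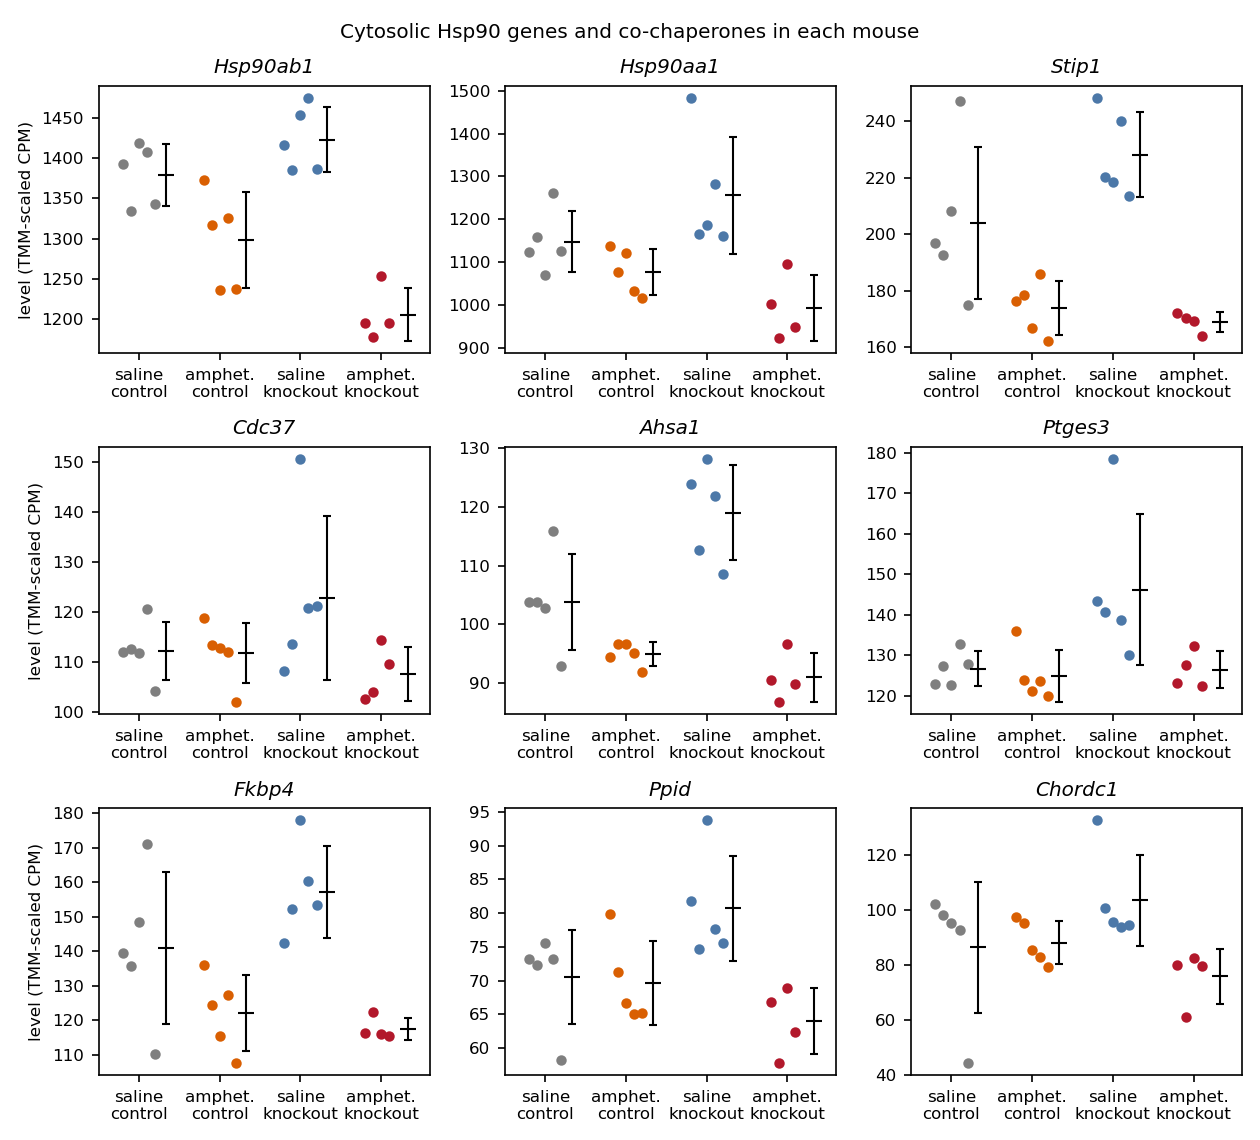
TMM-scaled CPM of each member gene (vertical axes, scaled per gene and not starting at 0) in each mouse (points) of the 4 groups, with the group mean and SD beside them. The 4 amphetamine knockout mice sit below the 5 saline knockout mice for all members but Cdc37 and Ptges3, and the saline control mouse at 44.3 CPM is the lowest point for Chordc1.

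Taking the 9 as a group, summed levels were 3372 ± 159 CPM (SD, n = 5) in saline control, 3160 ± 132 (n = 5) in amphetamine control, 3637 ± 182 (n = 5) in saline knockout and 2950 ± 129 (n = 4) in amphetamine knockout mice. In control mice 8 of 9 log2 fold changes lay below 0, with a median of -0.09, where 51.6% of all genes tested lay below 0. None of the 9 was called at an adjusted p under 0.05 by edgeR's quasi-likelihood test with Benjamini-Hochberg adjustment, where 0.00465% of all genes were. At an unadjusted p under 0.05, 2 were lower (Stip1 and Fkbp4), against 6.95% of all genes. DESeq2 (1.13% of genes called) and limma (0.00465%) also called 0 of the 9. Groups did not overlap for 0 of 9, against 1.68% of genes lower that way. With 3 covariates for neighbouring tissue (the mean levels of cortical, ependymal, and pallidal and septal markers) the median was -0.04, and without the 5 mice that stood apart it was -0.12.

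In knockout mice all 9 log2 fold changes lay below 0, from -0.19 for Cdc37 to -0.45 for Chordc1, with a median of -0.34, where 51.1% of all genes tested lay below 0. By edgeR 0 of 9 were called, where 0.00465% of all genes were, and all 9 had an unadjusted p under 0.05, where 12.1% of genes did in either direction. DESeq2 called 5 of the 9 (0.485% of genes), and limma called 0 (0.0139%). Groups did not overlap for 7 of 9, against 2.84% of all genes. The authors' deposited table for this comparison called 4 of them lower, Hsp90ab1, Stip1, Ahsa1 and Fkbp4, out of 0.259% of its genes called lower. Each of the 9 was below 0 in all 30 settings fitted, the reported one included, and the median was -0.34 with the neighbouring-tissue covariates and -0.38 without the 5 mice. Since the members were chosen on such values, nothing is read from these counts.

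Averaged over genotypes, edgeR called 2 members, Stip1 at a log2 fold change of -0.33 ± 0.06 and Ahsa1 at -0.26 ± 0.05, where 0.149% of all genes were called. DESeq2 called 5 (2.36% of genes) and limma 2 (0.144%). The edgeR count was 0 without saline control mouse 3, amphetamine control mouse 3 or 5, saline knockout mouse 4 or amphetamine knockout mouse 4. It was 1 without saline control mouse 1 or 4, amphetamine control mouse 1, 2 or 4 or amphetamine knockout mouse 1, and 3 without saline control mouse 5 or amphetamine knockout mouse 2. It was 0 with the 3 neighbouring-tissue covariates, 0 with a replicate block by the number in the library code, and 4 without the 5 mice.

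Marker levels moved with these groups. Summed striatal projection neuron markers were 3826 to 5368 CPM in saline control against 5669 to 7285 in amphetamine control mice, groups that did not overlap, and 3169 to 5939 in saline knockout against 2149 to 5574 in amphetamine knockout mice. Hypothalamic neuron markers summed to 52.5 to 114 CPM in saline knockout and 6.78 to 28.5 in amphetamine knockout mice. Ependymal markers summed to 39.5 to 55.3 CPM in saline control and 14.8 to 36.7 in amphetamine control mice, and choroid plexus markers reached 717 CPM in 1 amphetamine knockout mouse. Averaged over genotypes, cortical projection neuron markers lay above 0 for 10 of 10 (median 0.86, with 7 at an unadjusted p under 0.05), and pallidal and septal markers below 0 for 10 of 10 (median -0.37). Cortical sums ran from 146 to 663 CPM in saline control, 413 to 1075 in amphetamine control, 189 to 596 in saline knockout and 184 to 1245 in amphetamine knockout mice. No marker of these lists was at 0 in every mouse of the study. The part of projection neuron, hypothalamic and choroid plexus markers in the member values was not tested.

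**Figure D2:**
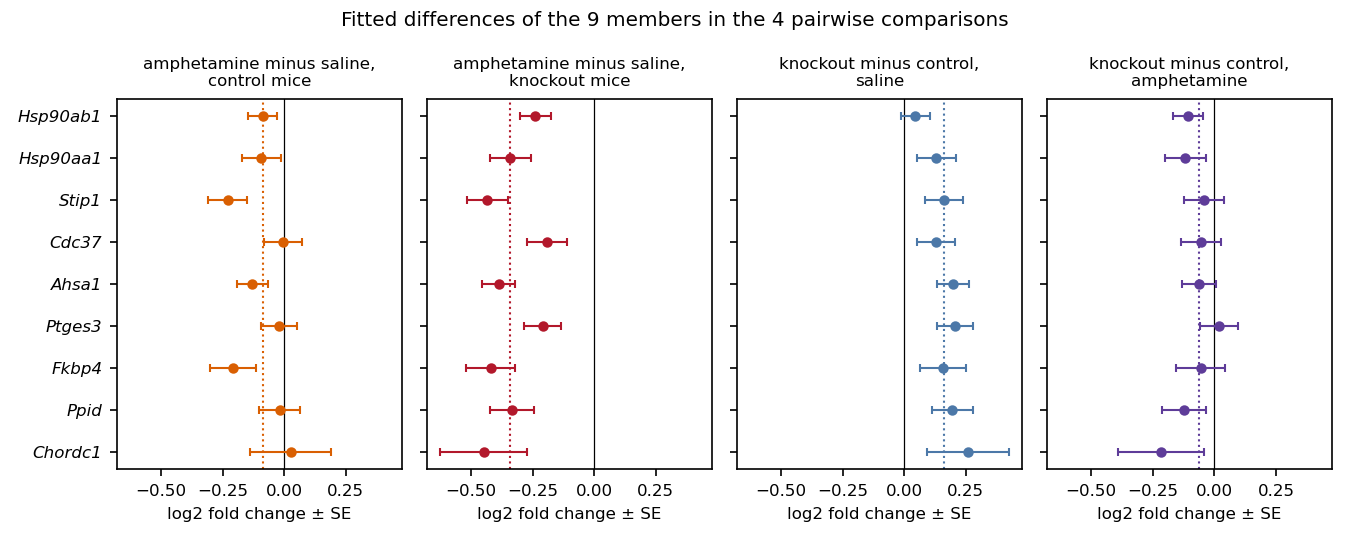
Log2 fold change with its standard error (horizontal axis) for each of the 9 members in the 4 pairwise comparisons, with dotted lines at the medians of -0.09, -0.34, 0.16 and -0.06. Values lie left of 0 for all 9 in knockout mice after amphetamine, and right of 0 for all 9 in the comparison of genotypes under saline.

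The genotype comparisons ask whether the prefrontal manipulation goes with another striatal level of these genes. They use the same mice as the amphetamine comparisons, so they are not independent of how the genes were chosen. Under saline all 9 members were higher in knockout than in control mice, with log2 fold changes from 0.05 ± 0.06 for Hsp90ab1 to 0.26 ± 0.17 for Chordc1 and a median of 0.16, where 51.0% of all genes lay above 0. None passed edgeR's test (adjusted p from 0.614 to 0.823), where 0.00% of all genes did. DESeq2 (0.00931% of genes called) and limma (0.00%) called 0 members. At an unadjusted p under 0.05, 3 members were higher, where 3.79% of all genes were: Ahsa1 (0.20 ± 0.06), Ptges3 (0.21 ± 0.07) and Ppid (0.19 ± 0.08). The groups overlapped for each of the 9, and 0.511% of all genes lay wholly higher. Without the 5 mice that stood apart the median was 0.12, and with the tissue covariates 0.15. Without saline control mouse 5 the median was 0.11 and Chordc1 was at 0.09. Chordc1 was at 0.15 without saline knockout mouse 1, and Ptges3 at 0.12 without saline knockout mouse 3.

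Other lists lay above 0 in the same comparison. Microglia markers did so for 10 of 10 (median 0.27), with summed levels of 352 to 467 CPM in saline control and 429 to 561 in saline knockout mice. Respiratory chain transcripts of the mitochondrial genome did so for 8 of 8 (median 0.26), with sums of 33918 to 54267 and 43788 to 56955 CPM. Both pairs of ranges overlap, and edgeR, DESeq2 and limma called 0 genes of either list, with 3 and 2 at an unadjusted p under 0.05 by edgeR. Genes of the cytosolic Hsp70 system lay above 0 for 18 of 21 (median 0.08), with 0 called by the 3 tools, and 30 other Hsp90 co-chaperones for 16 of 30 (median 0.01). Hspa8 was at 0.14 ± 0.06, with every knockout mouse above every control mouse. Hsp90b1 was at 0.14 ± 0.07 and Trap1 at -0.04 ± 0.06, and both overlapped. Their part in the member values was not tested.

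Under amphetamine 8 of 9 members were lower in knockout than in control mice, from -0.22 ± 0.18 for Chordc1 to 0.02 ± 0.08 for Ptges3, with a median of -0.06, where 49.0% of all genes lay below 0. None passed (edgeR adjusted p from 0.503 to 0.954), where 0.00% of all genes did, and 0 had an unadjusted p under 0.05, against 12.8% of genes in either direction. DESeq2 (0.499% of genes called) and limma (0.00%) called 0 members. The Ptges3 value was -0.04 without the 5 mice. In the same comparison 14 of 14 striatal projection neuron markers lay below 0, with a median of -0.76. Of these markers 13 had an unadjusted p under 0.05, and edgeR, DESeq2 and limma called 0. Their part in the member values was not tested.

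The knockout response to amphetamine minus the control response lay below 0 for all 9, from -0.15 ± 0.08 for Hsp90ab1 to -0.48 ± 0.24 for Chordc1, with a median of -0.21, where 49.1% of all genes lay below 0. None passed (edgeR adjusted p from 0.519 to 0.610), where 0.00% of all genes did. DESeq2 (0.0722% of genes called) and limma (0.00%) called 0 members. This comparison is built from both amphetamine comparisons, so it is a description. Ahsa1, Ppid and Hsp90aa1 had an unadjusted p under 0.05, where 4.05% of genes did on that side. The striatal projection neuron markers had a median difference of -0.70, with 14 of 14 below 0.

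Across the 19 mice the members varied together to different degrees. Each member was correlated with the mean standardised log2 CPM of the other 8. Within a mouse all members share its library depth and group, so the correlations are a description. Ahsa1 had the highest value (Pearson r = 0.953, Spearman rho = 0.928) and Chordc1 the lowest Pearson r (0.613, with rho = 0.740). By rho Ptges3 (0.653) and Cdc37 (0.679) were lower than Chordc1. On deviations from group means Ahsa1 had 0.862 and Hsp90aa1 had 0.364. By the mean of the 9 standardised levels, saline knockout mice 3, 1 and 4 stood highest and amphetamine knockout mouse 2 lowest. Saline control mouse 5 and amphetamine knockout mouse 4 were also among the 4 lowest.

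**Figure D3:**
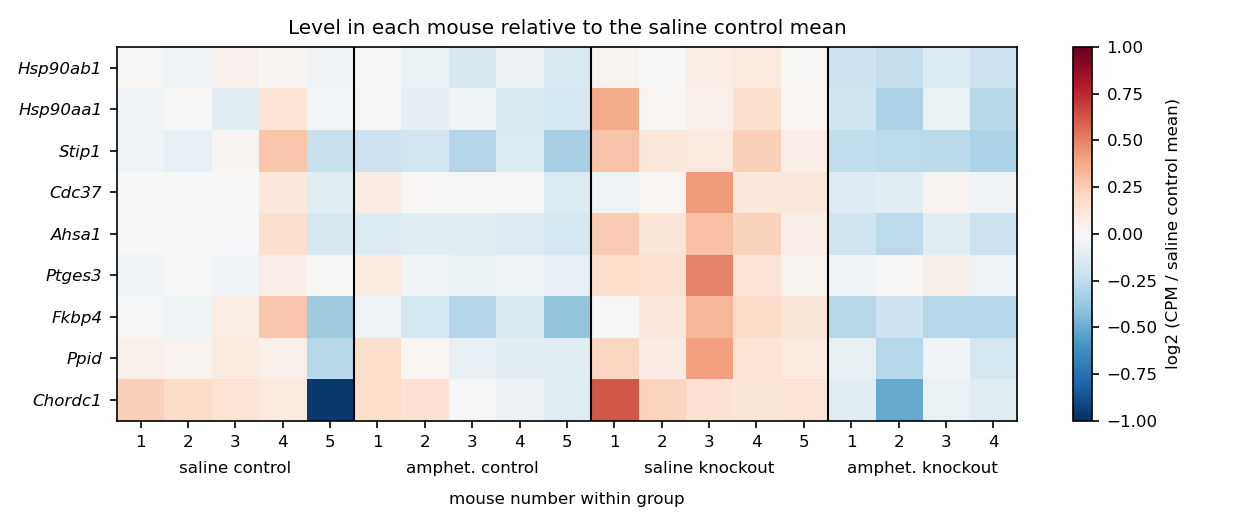
Log2 ratio of each member's CPM in each mouse (columns, by group) to its saline control mean (colour, from -1 to 1). Saline knockout columns are mostly red and amphetamine knockout columns mostly blue, and mouse 5 of the saline control group is blue for Chordc1, at 44.3 CPM.

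The 5 genes most like the mean member pattern, of 15216 with a mean of at least 1 CPM, were Hspd1 (r = 0.934, rho = 0.942), which encodes the mitochondrial chaperonin Hsp60, Dnaja1 (r = 0.929), an Hsp40 partner of Hsp70, Hsp90b1 (r = 0.929), the endoplasmic reticulum Hsp90, Txnl4a (r = 0.927), a spliceosome component, and Zfp773 (r = 0.909). Without saline knockout mouse 3 and amphetamine knockout mouse 2, the mice farthest from the median, the r of Hspd1 was 0.898 and that of Hsp90b1 was 0.939. On deviations from group means they had 0.905 and 0.785. These genes were picked as the highest r, so no test is given.

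The extreme values of Chordc1 came from 3 mice, in which some other members also stood low or high and others did not. Saline control mouse 5 (44.3 CPM) and amphetamine knockout mouse 2 (61.1 CPM) were its lowest, and saline knockout mouse 1 (133 CPM) its highest. Amphetamine knockout mouse 2 was also the lowest of the 19 for Hsp90aa1, Hsp90ab1, Ahsa1 and Ppid, and saline knockout mouse 1 the highest for Hsp90aa1 and Stip1. Other members went the other way. Saline knockout mouse 1 was the lowest of its group for Cdc37 (108 CPM) and Fkbp4 (142 CPM). Amphetamine knockout mouse 2 was the highest of its group for Fkbp4 (122 CPM). Saline control mouse 5 was also the lowest of its group for Stip1 (175 CPM), Ahsa1 (92.8), Cdc37 (104), Fkbp4 (110) and Ppid (58.2). That mouse lay within its group for Hsp90aa1, Hsp90ab1 and Ptges3 (128 CPM). Cirbp and Rbm3 encode cold-inducible RNA-binding proteins. They summed to 288 CPM in saline control mouse 5 and 341 in amphetamine knockout mouse 2, the highest of the 19. In saline knockout mouse 1 they summed to 60.9 CPM, the lowest. Glucocorticoid-induced genes summed to 1721 CPM in saline control mouse 5 and to 1277 in saline knockout mouse 1, against 604 to 881 in the other 17. Saline knockout mouse 3, with 245 CPM of Cirbp and Rbm3, had 95.6 CPM of Chordc1. These 3 mice were picked after their values were seen, and the part of either gene list was not tested.

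**Figure D4:**
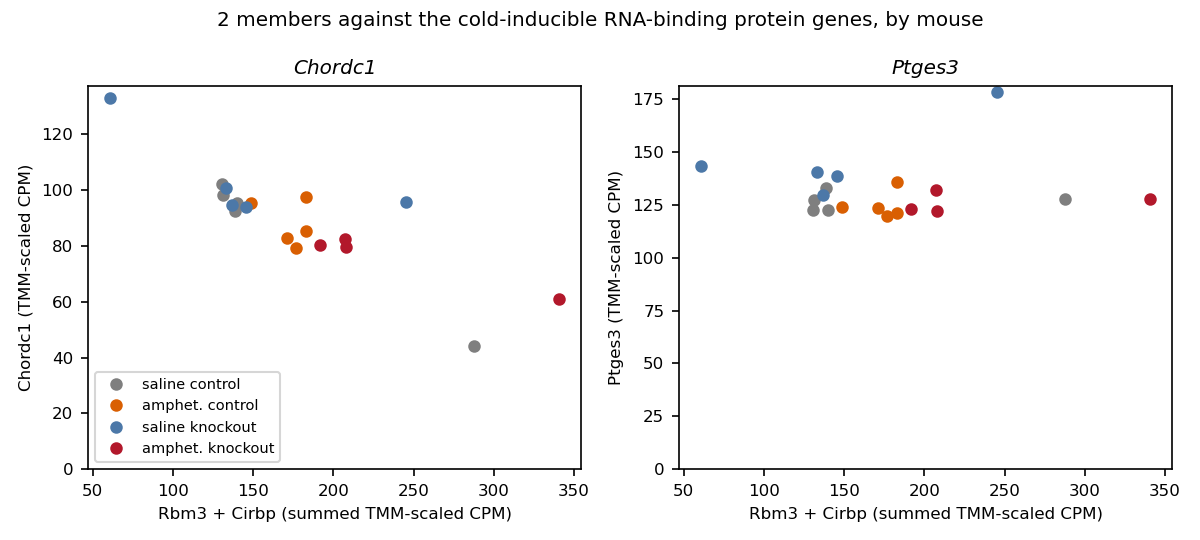
CPM of Chordc1 (left) and Ptges3 (right) against the summed CPM of Rbm3 and Cirbp in each of the 19 mice, coloured by group. The Chordc1 points run from 133 CPM at a sum of 60.9 to 44.3 and 61.1 CPM at sums of 288 and 341, while Ptges3 is highest, at 178 CPM, in the mouse with a sum of 245.

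Among other genes of the Hsp90 system, 30 further cytosolic co-chaperones were listed and all 30 were tested. Their median log2 fold change after amphetamine was -0.01 in control and -0.04 in knockout mice, and edgeR, DESeq2 and limma called 0 in each of the 6 contrasts. At an unadjusted p under 0.05 by edgeR, 6 were lower and 1 higher in knockout mice, of 30, where 12.1% of all genes had such a p in either direction. Their summed level ran from 2527 to 2983 CPM in saline knockout and from 2513 to 2596 CPM in amphetamine knockout mice. In knockout mice Cacybp, which binds the ubiquitin ligase Siah, had -0.28, Stub1, the CHIP ubiquitin ligase, -0.20, Ppp5c 0.04 and Sugt1 0.08. In control mice Sugt1 was higher after amphetamine, at 0.18 ± 0.06, and the groups did not overlap. The authors' deposited table has Sugt1 at 0.18 there (adjusted p = 0.0249). Fkbp5, a glucocorticoid-induced relative of Fkbp4, had -0.34 in control and -0.14 in knockout mice, with none of these called by edgeR.

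Of the organelle paralogs, Hsp90b1 averaged 444 ± 24.3 CPM in saline control, 400 ± 31.2 in amphetamine control, 490 ± 23.1 in saline knockout and 366 ± 14.6 in amphetamine knockout mice, and it was lower over both genotypes (log2 fold change -0.28 ± 0.05, edgeR adjusted p = 0.0267). Trap1, the mitochondrial Hsp90, was at -0.07 and was not called by edgeR. Hsf1 had -0.14 and Hsf2 0.00, Nr3c1, the glucocorticoid receptor and a classic client, had 0.13, and none was called by edgeR. Of 25 client receptors and kinases edgeR, DESeq2 and limma called 0 in knockout mice after amphetamine, where the median was 0.05. By edgeR 1 of the 25 had an unadjusted p under 0.05, against 12.1% of all genes. In the Hsp70 system, which hands clients to Hsp90, Hspa8 (-0.30 ± 0.04, adjusted p = 0.0069) and Dnajb1 (-0.26 ± 0.05, adjusted p = 0.0443) were lower by edgeR over both genotypes, 2 of 21 genes. DESeq2 called 5 of the 21 and limma 2. Over all genes 0.149% were called by edgeR, 2.36% by DESeq2 and 0.144% by limma. Hsph1 (-0.33) and Hspa1a (-0.57) were not called by edgeR in this contrast. The authors' deposited tables have Hspa1a at -0.62 in control mice (adjusted p = 0.000309) and Hsph1 at -0.59 in knockout mice (adjusted p = 0.0253). These calls come from the contrast the members were chosen on.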

How the data were processed

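Striatal RNA of 19 mice was analysed in the 4 groups above. The authors deposited whole-number gene counts per mouse, with GRCm39, STAR 2.6.0c, HTSeq 0.6.1p2, Trim Galore 0.5.0, FastQC 0.11.5, R 3.6.1 and DESeq2 1.26.0s named, in no order, per the submitters' processing notes. For the counting, strand setting and annotation release were not given in the sources used here. How reads alike between a member and a pseudogene copy, such as Ptges3-ps, were counted is therefore not known. By position none of the 9 overlapped another gene that the authors listed. The authors' FPKM, deposited in 3 comparison tables, is scaled by a gene length that is not stated, and the log2 fold changes and p-values there are the authors' own. A library the authors left out of 1 table was not analysed here.

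The test was edgeR 4.0.16 under R 4.3.3 on the counts (filterByExpr, TMM, robust quasi-likelihood fit of 4 group means), with Benjamini-Hochberg adjustment over all 21513 genes per contrast and a call at an adjusted p under 0.05. SE is the fold change over the root of F. DESeq2 1.42.0 and limma 3.58.1 were alternatives, with another scaling, no filter, tissue covariates, a replicate block, and leaving out mice. The edgeR test was also run on simulated counts with known changes, for amphetamine in knockout mice only. The outcome of that run is not given here, and no result above rests on it. The members and lists were chosen with earlier results of these data known. Named genes were all 9 members, 18 further genes, 1 of which is not reported here, and the 5 most alike in pattern.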

Additional observations from a re-analysis of the deposited data

Results flagged for a closer look

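Within a group, a member's highest or lowest mouse was marked where its gap to the nearest other mouse, as a share of the group's range, passed Dixon's 95% value (0.829 for 4 mice, 0.710 for 5). Of 36 groups checked, 7 values were marked, and chance alone marks about 1 in 20 groups. The same mice recur across genes that varied together, so the 36 are not independent checks. Nothing is read from the number marked. Chordc1 had 3 of them: 44.3 CPM in saline control mouse 5, 133 in saline knockout mouse 1 and 61.1 in amphetamine knockout mouse 2. Ppid had 58.2 CPM in saline control mouse 5. Ptges3 had 178 CPM in saline knockout mouse 3 and 136 in amphetamine control mouse 1. Fkbp4 had 122 CPM in amphetamine knockout mouse 2, high in its group.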

How the results depend on the processing

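Of the members' called counts, those in control mice, between genotypes and for the difference were 0 in each alternative run. In knockout mice after amphetamine 0 were called in the main test, 5 by DESeq2 and 1 with a replicate block, and leaving out 1 mouse gave 0 to 2 (2 without saline control mouse 4 or 5). Averaged over genotypes the count of 2 became 5 by DESeq2, 1 with no filter on low counts, 0 with the replicate block by library code, 0 with the neighbouring-tissue covariates, 4 without the 5 mice that stood apart, and 0 to 3 leaving out 1 mouse. The cause was not tested. Ptges3 between genotypes under amphetamine was -0.0011 with the replicate block, -0.0105 with covariates and -0.0352 without the 5 mice, against 0.02, and ran from -0.0055 (without amphetamine knockout mouse 3) to 0.0458 leaving out 1 mouse. Whether the numbers pair the mice cannot be told. By title number 0 of 5 control and 0 of 4 knockout pairs of a saline and an amphetamine mouse correlated over 0.1. By library code 0 of 5 control pairs did so, and 3 of 4 knockout pairs did, with r from 0.07 to 0.20 over the 4. Correlations this weak cannot decide it, and neither block was taken as a pairing.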
